A study of Mus musculus with 8 samples.

Results

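Mitochondria carry their own ribosome, the mitoribosome, which translates the few messenger RNAs of the mitochondrial genome into subunits of the respiratory chain and of ATP synthase. Its ribosomal RNAs are made inside the organelle, but its proteins are encoded in the nucleus, made on cytosolic ribosomes and imported. The genes of these proteins are named Mrpl for the large subunit and Mrps for the small subunit. Some of the proteins descend from bacterial ribosomal proteins and others occur in mitochondria only. The genes described here are all rows of the deposited table whose symbol starts with Mrpl or Mrps followed by a digit. There were 78 such genes among 12339 in the table, and GENCODE mouse release M21 holds 78 protein-coding genes of these names, so none was missing. Of the 78, 51 encode proteins of the large subunit and 26 of the small subunit. The large-subunit count includes Mrps30 and Mrps18a, whose proteins sit in the large subunit despite their symbols. The remaining member is Mrps36, whose protein is now also known as a part of the 2-oxoglutarate dehydrogenase complex of the citric acid cycle. In all, 46 of the proteins were classed as having a bacterial homologue and 31 as mitochondria-specific. Mrps18a and Mrps18b, though related to a bacterial protein, were placed in the second class.

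The study sequenced 8 RNA libraries from mouse retina. The 4 cKO libraries came from mice with a conditional knockout of Nrf2 in Müller cells, the main glial cells of the retina, and the 4 WT libraries came from wild-type mice. All 8 were taken at postnatal day 14 of oxygen-induced retinopathy (OIR), in which pups are kept in high oxygen and then returned to room air, and all were made with RiboTag, which pulls down tagged ribosomes of the cells that express Cre together with the RNA on them. The pull-down is aimed at RNA bound to cytosolic ribosomes, but RNA not bound to them, such as that of the mitochondrial genome, was also present. None of the 8 libraries held RNA from before the pull-down. The values thus cannot be read as ribosome-bound RNA alone. The libraries are numbered 1, 3, 4 and 5 in each group. The labels name neither the Cre driver, the deleted exons, the sex or litter of the mice, nor how many animals made up a sample, so p-values describe the spread between these samples.

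Nfe2l2, the gene of Nrf2, which is a transcription factor of the antioxidant response, was measured at 12.7, 16.5, 14.8 and 10.4 FPKM in cKO libraries 1, 3, 4 and 5, against 17.5, 18.8, 23.1 and 17.5 FPKM in WT libraries 1, 3, 4 and 5. FPKM are fragment counts scaled by transcript length and library size. All 4 cKO values lay below all 4 WT values, and the mean was 29.3% lower in cKO (exact two-sided permutation test p = 0.0286, the smallest that 70 assignments allow). FPKM summed to between 410581 and 448130 per library, and the number of fragments behind them is unknown. All 12 Müller cell markers were measured, with a summed level of 9990 to 14100 FPKM in cKO libraries and 9390 to 16000 FPKM in WT libraries. The 12 rod markers summed to 3980 to 6050 FPKM in cKO and 3730 to 5840 FPKM in WT libraries, so RNA of other cells was present.

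The members were of middling abundance. Their mean level over the 8 libraries had a median of 27.3 FPKM, against 15.4 FPKM over all genes of the table, and 58 of the 78 lay between 15 and 50 FPKM. The highest mean, 105 FPKM, was 17.8 times the lowest, 5.88 FPKM. No member was at 0 in any library, and single values ran from 3.54 to 123 FPKM.

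The highest member was Mrps21, the homologue of a bacterial small-subunit protein. It had 120, 90.1, 123 and 114 FPKM in cKO libraries, against 90.1, 75.4, 123 and 103 FPKM in WT libraries. The groups overlapped, and the difference of 0.20 ± 0.16 (log2, cKO minus WT, ± SE) did not pass the test. Next in order stood Mrpl17, a large-subunit protein with a bacterial homologue, which averaged 88.7 ± 7.01 FPKM in cKO and 80.1 ± 12.2 FPKM in WT libraries (SD, n = 4 each). Its libraries spanned 66.5 to 97.6 FPKM and those of Mrps21 spanned 75.4 to 123 FPKM, so the ranges overlapped. Within each library Mrps21 was the higher, except in WT library 3, with 75.4 FPKM against 76.3 FPKM for Mrpl17. Mrpl58 followed at 59.7, Mrpl20 at 58.9 and Mrpl42 at 57.1 FPKM, with ranges over libraries that overlapped one another.

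At the low end stood Mrpl23, whose bacterial homologue lines the exit of the peptide tunnel, with a mean of 5.88 FPKM. Mrpl1, a homologue of the protein at the mobile stalk of the bacterial large subunit, followed at 5.94 FPKM. Mrps30 had 8.67 FPKM and Mrpl35, a homologue of a bacterial large-subunit protein, had 9.03 FPKM.

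**Figure D1:**
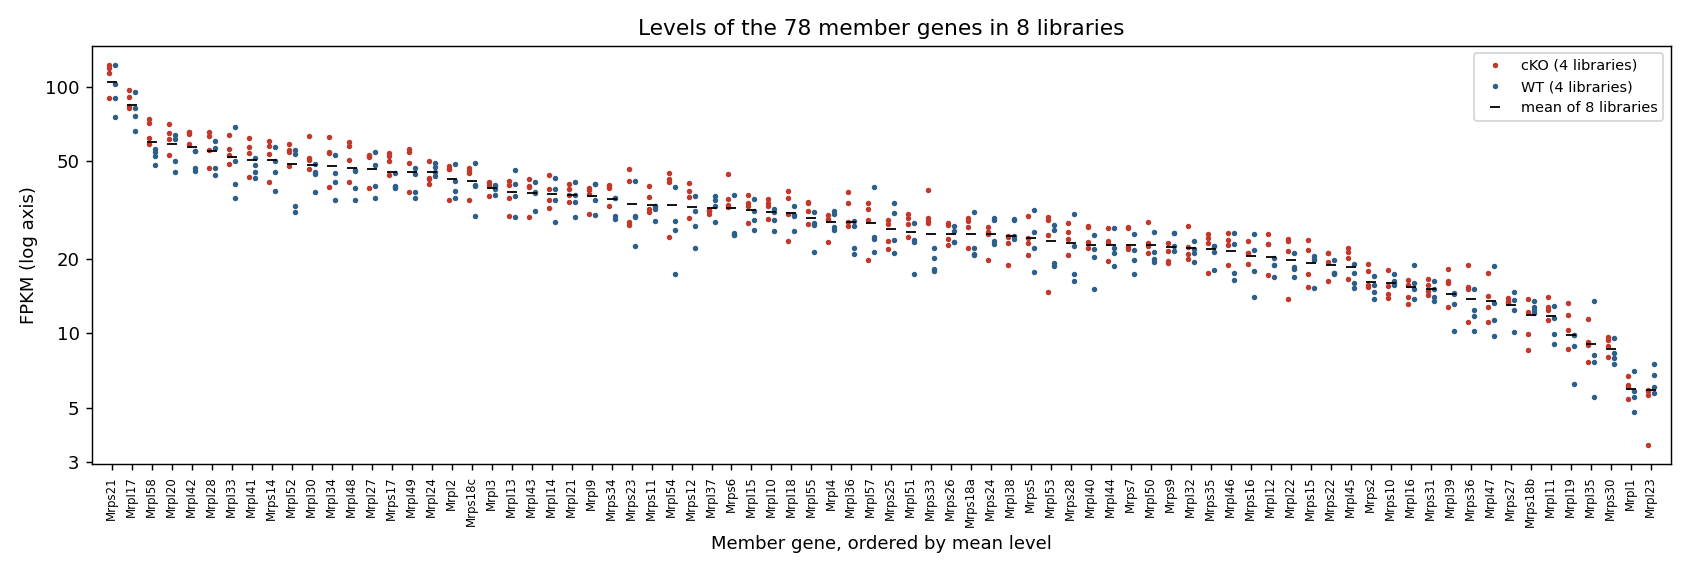
Level of each of the 78 genes in FPKM (logarithmic vertical axis), ordered by the mean over 8 libraries; red points are the 4 cKO libraries, blue points the 4 WT libraries and black bars the mean of all 8. Means ran from 105 FPKM for Mrps21 to 5.88 FPKM for Mrpl23, and 58 of 78 lay between 15 and 50 FPKM.

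The comparison of cKO with WT libraries asked how the pulled-down RNA differed with loss of Nrf2 in Müller cells in OIR. Most members had somewhat higher levels in cKO libraries: 65 of 78 differences (83.3%) were above 0, against 50.7% of all genes. The median difference, cKO minus WT on the log2(FPKM + 0.5) scale, was 0.14 over the members and 0.00 over all genes, and the members ran from −0.31 to 0.64. The median stayed above 0 under every scaling tried. The differences were small, and in the fit without a replicate term none passed. With limma on all 12339 genes and Benjamini-Hochberg adjustment, 0 members had an adjusted p under 0.05, as did 0.0% of all genes in either direction. At an unadjusted p under 0.05, 8 members were higher and 0 lower in cKO, or 10.3% and 0.0% of the members. Over all genes 3.95% were higher and 6.67% lower at that threshold, and after quantile scaling 5.12% were higher and 5.69% lower, with 8 and 0 members.

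Libraries of the same replicate number deviated together in cKO and WT, so the numbers were taken to pair the samples. The labels do not say what the numbers stand for, and the pairing was read from these same values. The match was weakest for number 1, with a correlation of 0.261, against 0.211 for cKO library 4 with WT library 5. With the replicate number as a block in the limma fit, 8 members rose in cKO at an adjusted p under 0.05, 0 fell and 70 did not pass. The 8 are 10.3% of the members, beside 2.99% of all genes that rose; 7.59% of all genes fell. At an unadjusted p under 0.05 with the block, 26 members were higher and 2 lower, beside 12.4% and 16.0% of all genes. In the same direction in all 4 pairs, 26 members (33.3%) were higher, beside 16.7% of all genes, and 1 was lower, beside 19.5%. In bulk libraries such as these, a change in the share of a cell type and a change in RNA per cell cannot be told apart.

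**Figure D2:**
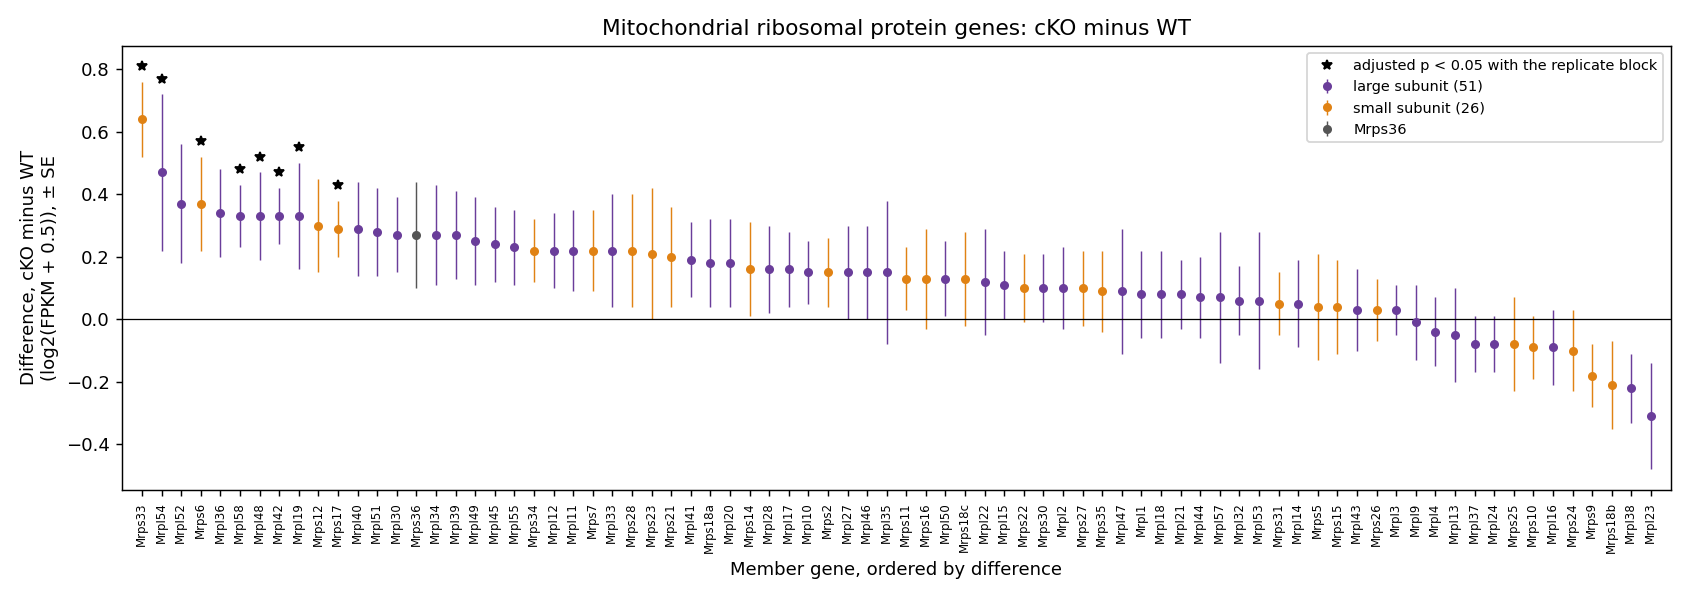
Difference of each of the 78 genes, cKO minus WT on the log2(FPKM + 0.5) scale, with its SE from the fit without the block (vertical axis), ordered by size; colours give the subunit and stars mark the 8 genes with an adjusted p under 0.05 with the replicate block. Points run from 0.64 for Mrps33 to −0.31 for Mrpl23, and 65 of 78 lie above 0.

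Both subunits had medians above 0. The large subunit had a median difference of 0.15, with 43 of 51 members above 0 and 5 that rose with the block. The small subunit had a median of 0.13, with 21 of 26 above 0 and 3 that rose. Members with a bacterial homologue had a median of 0.13 and 3 of 46 rose, and mitochondria-specific members had a median of 0.15 and 5 of 31 rose. With the block 10.3% of all members and 2.99% of all genes rose, and the difference between these classes was not tested.

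Mrps33, a mitochondria-specific protein of the small subunit, changed most. It had 38.2, 28.1, 29.5 and 28.6 FPKM in cKO libraries 1, 3, 4 and 5, against 22.3, 20.3, 18 and 18.2 FPKM in WT libraries 1, 3, 4 and 5. All cKO values exceeded all WT values, and cKO library 1 stood above the other 3. The difference was 0.64 ± 0.12 (log2, SE), or 1.56-fold on the log2(FPKM + 0.5) scale, with an adjusted p of 0.291 in limma without the block and 0.00327 with it. Mrps33 was the only one of the 8 that passed whichever pair was left out, with adjusted p between 0.00786 and 0.0232 in limma with the block.

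Mrps6 and Mrps17, homologues of bacterial small-subunit proteins, rose with the block as well. Mrps6 had 33.1, 35.1, 44.3 and 32.6 FPKM in cKO libraries, against 25, 25.2, 36.6 and 25.5 FPKM in WT libraries. Library 4 was highest in both groups, so the groups overlapped, while within every pair the cKO value was higher. The difference was 0.37 ± 0.15, with an adjusted p in limma of 0.466 without and 0.0131 with the block. Mrps6 shares 159 exon bases with Slc5a3 and 305 with Gm49711, both on its own strand and neither in the table, and its reads may include theirs. Mrps17 had 50, 43.8, 52.4 and 53.9 FPKM in cKO libraries, against 39.2, 39.1, 39.6 and 45 FPKM in WT libraries. Only cKO library 3 lay within the WT range. The difference was 0.29 ± 0.09, with an adjusted p in limma of 0.453 without and 0.0318 with the block.

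Of the large subunit, Mrpl42 and Mrpl58 rose with the block and had groups that did not overlap. Mrpl42, a mitochondria-specific protein, had 65.5, 59.0, 65.6 and 64.5 FPKM in cKO libraries, against 45.6, 46.9, 55.0 and 55.1 FPKM in WT libraries. The difference was 0.33 ± 0.09, with an adjusted p in limma of 0.453 without and 0.0254 with the block. Mrpl58 encodes a peptidyl-tRNA hydrolase that is built into the large subunit and is known, from human cells, for releasing stalled mitoribosomes. It had 71.5, 58.9, 62.3 and 74.0 FPKM in cKO libraries, against 48.3, 52.4, 54.3 and 56.2 FPKM in WT libraries. The difference was 0.33 ± 0.10, with an adjusted p in limma of 0.453 without and 0.0388 with the block. With Mrps33, these were the 3 members (3.85%) whose cKO values all lay above the WT values, beside 2.06% of all genes. No member had all cKO values below the WT values, beside 2.28% of all genes. Without cKO library 3, 19 members (24.4%) were above without overlap, but so were 8.63% of all genes. Without WT library 4 there were 6 members (7.69%, beside 5.36% of all genes) and without WT library 5 there were 7 (8.97%, beside 4.81%).

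Mrpl54, Mrpl48 and Mrpl19 rose with the block while their groups overlapped. Mrpl54, a mitochondria-specific protein, had 44.9, 24.7, 42.4 and 41.3 FPKM in cKO libraries, against 28.6, 17.5, 26.4 and 39.2 FPKM in WT libraries. Library 3 was lowest in both groups and WT library 5 was nearly at the level of cKO library 5. The difference was 0.47 ± 0.25 and the adjusted p in limma was 0.493 without and 0.0298 with the block. Mrpl48 had 50.8, 41.2, 57.4 and 60.0 FPKM in cKO libraries, against 34.9, 39.0, 46.1 and 45.5 FPKM in WT libraries, a difference of 0.33 ± 0.14 (adjusted p in limma 0.469 without and 0.0421 with the block). Mrpl48 shares 708 exon bases with Rab6a on the opposite strand and has a pseudogene, Mrpl48-ps. Mrpl19, of bacterial descent, had 13.3, 8.61, 11.9 and 10.3 FPKM in cKO libraries, against 9.85, 6.21, 9.89 and 8.86 FPKM in WT libraries. That difference was 0.33 ± 0.17 (adjusted p in limma 0.493 without and 0.0448 with the block), and 1962 of its exon bases lie opposite Gcfc2. How reads of overlapping genes were assigned is not given in the sources used here.

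**Figure D3:**
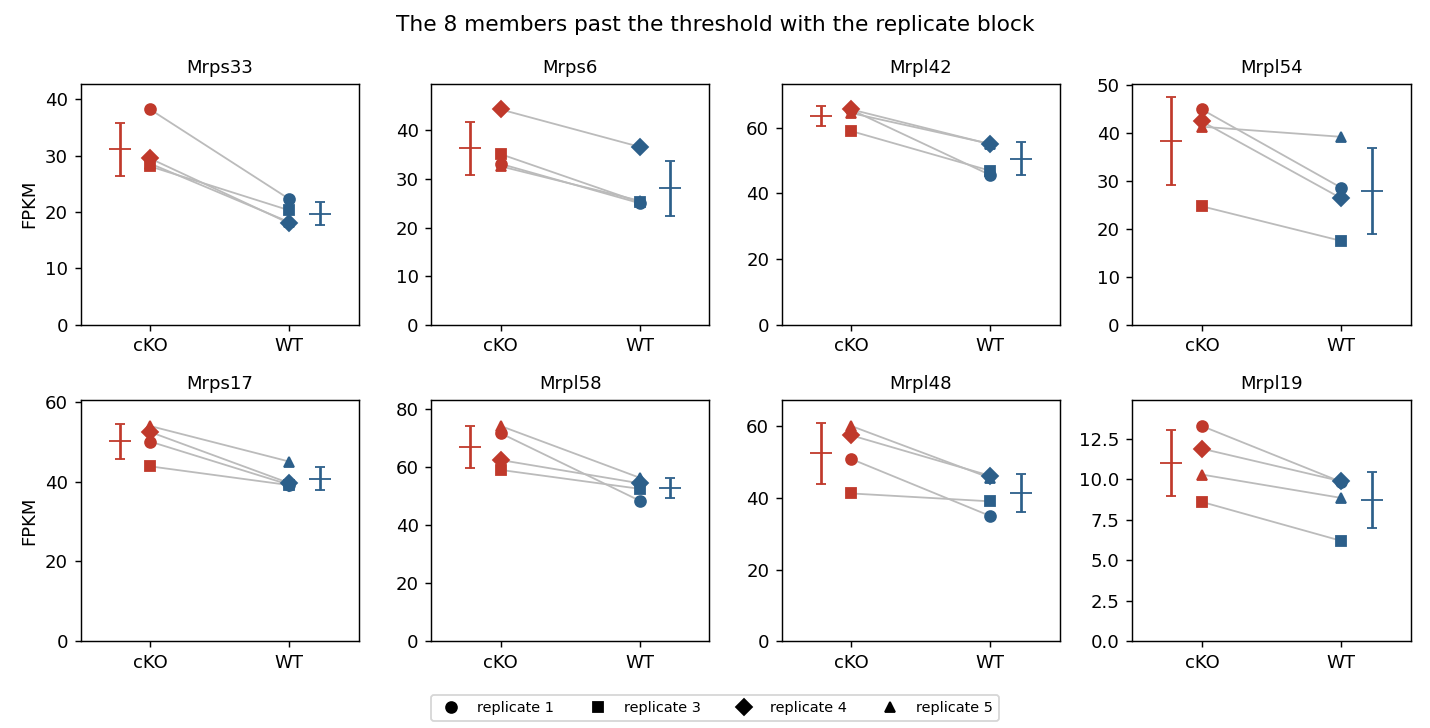
Level in FPKM (vertical axes from 0) of the 8 genes that rose with the replicate block, cKO left and WT right; symbols are replicate numbers, grey lines join equal numbers, and bars beside the points give mean ± SD (n = 4 each). All lines slope down from cKO to WT, and the groups do not overlap for Mrps33, Mrpl42 and Mrpl58.

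These calls rested on few residual degrees of freedom, 3 with the block and 6 without. Without pair 1 only Mrps33 rose (1.28% of the members), beside 0.446% of all genes. Without pair 3, 2 members (2.56%) rose, beside 0.964% of all genes, and without pair 4, 2 members rose, beside 0.681%. Without pair 5, 9 members (11.5%) rose, beside 1.10% of all genes. None fell in these 4 fits, beside 2.81% to 5.55% of all genes. When the block was combined with a per-library spline correction for length of transcript and GC content, 3 members rose: Mrps33 (adjusted p in limma 0.00739), Mrps17 (0.0317) and Mrps6 (0.0447). The other 5 had adjusted p between 0.0504 and 0.0643 in that fit. Over all genes 1.95% rose and 5.59% fell in it.

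Other members with small p in the fit without the block did not pass with it either. Mrpl36, a homologue of the smallest protein of the bacterial large subunit, had 33.7, 27.2, 37.5 and 28.3 FPKM in cKO libraries, against 22.3, 21, 27.4 and 28.7 FPKM in WT libraries (0.34 ± 0.14; adjusted p in limma 0.469 without and 0.0696 with the block). It was higher in cKO in 3 of 4 pairs. Mrpl30, of bacterial descent, differed by 0.27 ± 0.12 and was higher in 4 of 4 pairs (adjusted p in limma 0.0785 with the block). Mrps34, a mitochondria-specific small-subunit protein, differed by 0.22 ± 0.10, and it shares 763 exon bases with Nme3 on its own strand. Mrpl51 differed by 0.28 ± 0.14, Mrpl45 by 0.24 ± 0.12 and Mrps12 by 0.30 ± 0.15. Mrpl45 is related to a membrane-anchoring protein and lies at the exit of the peptide tunnel, and Mrps12 is the homologue of the bacterial protein at the decoding site.

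The other members named for a known second role or a shared origin did not pass. Mrpl12, which in human cells also binds the mitochondrial RNA polymerase, had 23.0, 17.3, 23.1 and 25.3 FPKM in cKO libraries, against 20.2, 19.0, 19.0 and 17.0 FPKM in WT libraries (0.22 ± 0.12). Mrps36 averaged 15.2 ± 3.23 FPKM in cKO and 12.4 ± 2.10 FPKM in WT libraries (SD, n = 4 each), and GENCODE lists 3 pseudogenes named after it. The 3 relatives of a single bacterial small-subunit protein gave unlike values. Mrps18a, which sits in the large subunit, differed by 0.18 ± 0.14, Mrps18b by −0.21 ± 0.14 and Mrps18c, the direct counterpart of the bacterial protein, by 0.13 ± 0.15. The difference of Mrps18c fell below 0 with the correction for length and GC content.

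Of the 78, 13 had differences below 0. The lowest was Mrpl23, with 5.91, 3.54, 5.64 and 5.83 FPKM in cKO libraries, against 6.77, 6.07, 7.55 and 5.74 FPKM in WT libraries (−0.31 ± 0.17; adjusted p in limma 0.502 without and 0.167 with the block). The groups overlapped, and cKO library 3 stood below the rest. Mrps9, a homologue of a bacterial small-subunit protein, named after its values were seen, was lower in cKO in 4 of 4 pairs. It had 21.6, 19.7, 23.3 and 19.4 FPKM in cKO libraries, against 25.6, 22.6, 25.5 and 21.7 FPKM in WT libraries (−0.18 ± 0.10). Its adjusted p in limma was 0.501 without the block and 0.113 with it, and 0.0438 with the block and the correction for length and GC content.

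The level of the members varied with the library. Their median level was 29.3, 24.2, 29.6 and 28.7 FPKM in cKO libraries 1, 3, 4 and 5, against 25.3, 22.7, 27.5 and 29.3 FPKM in WT libraries 1, 3, 4 and 5. The number 3 libraries were lowest in both groups, and WT library 5 was level with cKO library 1. WT library 3 held the lowest of the 8 values for 40 of the 78 members (51.3%), beside 17.7% of all genes. cKO library 3 held it for 16 members (20.5%, beside 10.2% of all genes) and WT library 1 for 13 (16.7%, beside 14.2%). The highest value fell in cKO library 5 for 20 members (25.6%, beside 17.2% of all genes). In cKO library 1 it fell for 18 (23.1%, beside 6.49%) and in cKO library 4 for 15 (19.2%, beside 12.6%). In cKO library 3 it fell for 0 members, beside 8.34% of all genes, and in WT library 5 for 17 (21.8%, beside 11.2%).

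**Figure D4:**
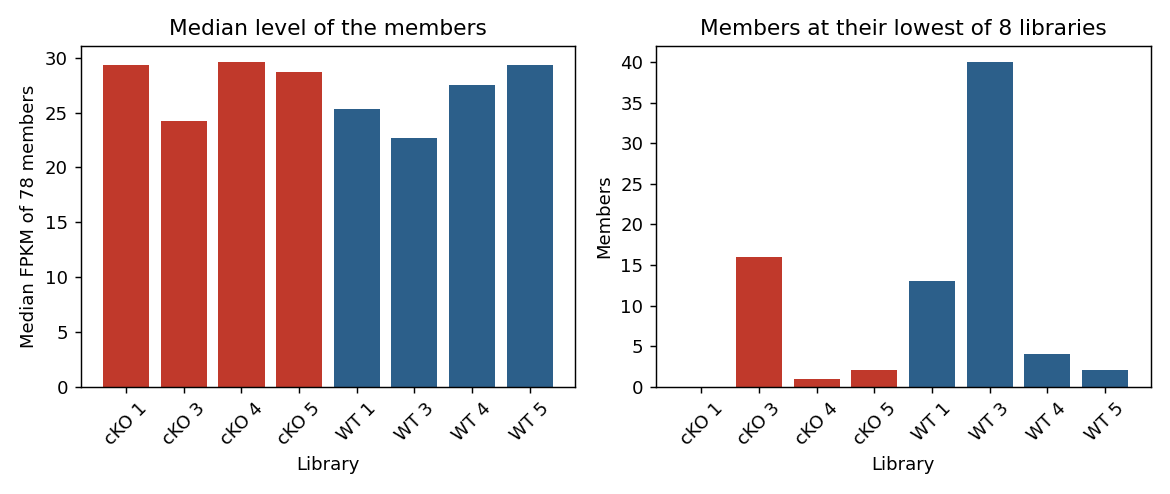
Left, median level of the 78 genes in each library in FPKM (vertical axis from 0); right, number of the 78 genes that had their lowest value in that library. Red bars are cKO and blue bars WT; WT library 3 has the lowest median, 22.7 FPKM, and holds the lowest value of 40 genes.

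Taken by pair, the median difference of the members was 0.29 in pair 1, 0.11 in pair 3, 0.12 in pair 4 and 0.05 in pair 5. The members higher in cKO numbered 70, 52, 55 and 46 of 78 in pairs 1, 3, 4 and 5. Of all 12339 genes, 6376, 5762, 5883 and 6214 were higher in cKO in these pairs. Their median differences were 0.01, −0.02, −0.01 and 0.0. Pair 5 thus had little difference, and pair 1 had the largest. The mean log2 level of 81 genes that GENCODE labels sense intronic or TEC (transcripts of unsettled status) also varied between libraries. These genes were taken as a stand-in for unspliced RNA, and splicing itself was not measured. Their mean was 2.22, 2.46, 1.86 and 1.64 in cKO libraries 1, 3, 4 and 5, against 2.59, 2.76, 2.27 and 2.0 in WT libraries 1, 3, 4 and 5. It was lower in cKO in every pair and highest in the number 3 libraries; its part in the members' differences was not tested. Marker genes of retinal cells also moved with genotype. With the block, 5 of 10 bipolar cell markers and 2 of 5 measured astrocyte markers rose, beside 2.99% of all genes. In the same fit 4 of 9 amacrine and 4 of 8 ganglion cell markers fell, beside 7.59% of all genes. No marker passed without the block. With the block and the correction for length and GC content, 4 bipolar, 1 astrocyte and 0 rod markers rose. Of the amacrine markers 2 fell in that fit, and of the ganglion cell markers 3. Of 8 measured cone markers 4 fell and 1 rose, with a summed level of 103 to 119 FPKM in cKO and 92.4 to 124 FPKM in WT libraries. Of the 12 Müller cell markers 9 had differences below 0, with a median of −0.10, and 1, the water channel gene Aqp4, fell. With the block and 1 pair left out, Aqp4 did not pass without pair 1, 3 or 4 (adjusted p in limma 0.113 to 0.117). Of the 12 rod markers 1 rose, with a median of 0.06. Of the 2 measured pericyte markers 1 rose, and none of the 4 endothelial markers or the 1 microglial marker measured passed. Bipolar markers summed to 2740 to 3510 FPKM in cKO and 2220 to 2860 FPKM in WT libraries, and astrocyte markers to 253 to 418 FPKM in cKO and 127 to 285 FPKM in WT libraries. Gfap was the highest astrocyte marker, at 218 ± 68.0 FPKM in cKO and 91.7 ± 51.8 FPKM in WT libraries (SD). Gfap and S100b were those that rose, while Aldh1l1, Pdgfra and Cd44 differed by 0.10 to 0.15 and did not pass. S100b did not pass with the block and the correction (adjusted p in limma 0.0893). With the block it also failed without pair 1, 4 or 5 (0.0807 to 0.128). Which cells the RNA of Gfap and S100b came from was not tested. Amacrine markers summed to 264 to 320 FPKM in cKO and 330 to 378 FPKM in WT libraries, and ganglion cell markers to 57.1 to 79.1 FPKM in cKO and 75.6 to 103 FPKM in WT libraries. No measured marker was at 0, and the part of these cells in the members' differences was not tested.

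Members have short transcripts, with a median length of 1328 nt against 3143 nt over all genes, and the differences of the other genes were higher the shorter their transcripts. All genes were divided into 4 equal bins by length, that of the longest annotated protein-coding transcript of each gene. This transcript need not be the one expressed, nor its length the one behind the FPKM. In the shortest bin, of 111 to 1945 nt, the 52 members had a median difference of 0.14 and the other genes one of 0.10. In that bin 40 of 52 members were above 0, beside 67.9% of the other genes. In the next bin, up to 3143 nt, the 11 members had a median of 0.16, against 0.03 for the others, and 11 of 11 were above 0, beside 56.5%. In the one after, up to 4683 nt, the medians were 0.09 for 11 members and −0.01 for the others, and 11 of 11 members were above 0, beside 47.1%. The longest bin held only 4 members, with a median of 0.22 against −0.10. Among these 4 were Mrps17 and Mrpl19, which rose with the block, beside 0.845% of the other genes in that bin. In the shortest bin 4 of 52 members rose with the block, close to the 6.29% of the other genes there. In each of the middle bins 1 of 11 members rose, beside 2.77% and 1.89% of the other genes. After the correction for length and GC content the members' median was 0.08, and 54 of 78 were above 0. Over all genes that median was 0.0, and 6278 of 12339 were above 0.

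**Figure D5:**
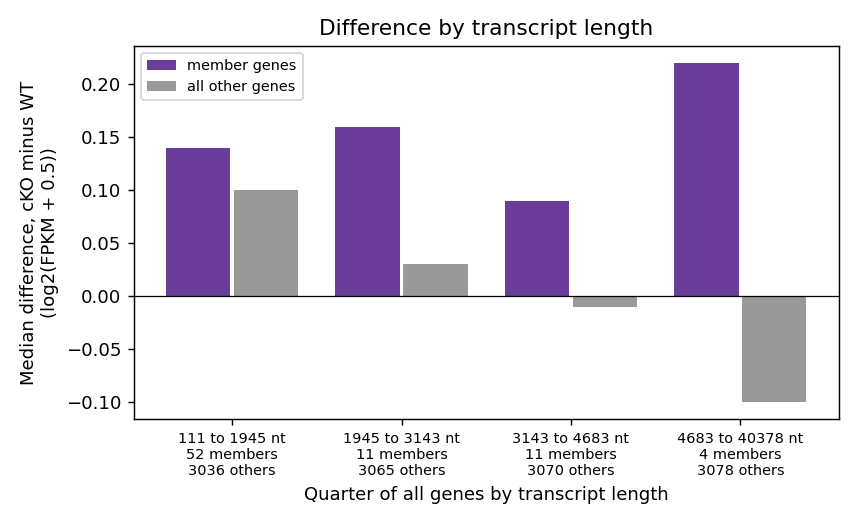
Median difference, cKO minus WT on the log2(FPKM + 0.5) scale (vertical axis), of members (purple) and of all other genes (grey) in 4 equal bins of all genes by transcript length in nt. Other genes run from 0.10 in the shortest bin to −0.10 in the longest; members lie between 0.09 and 0.22, with only 4 members in the longest bin.

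The members lie on 17 chromosomes, with 11 on chromosome 11, the most of any. For 33 of them a protein-coding gene starts within 1000 bases on the other strand. Of these neighbours, 27 were in the table and were no members themselves. They had a median difference of −0.06, with 11 of 27 above 0, while the 27 members beside them had a median of 0.13, with 24 above 0. The neighbours had longer transcripts, with a median of 3197 nt. After the correction for length and GC content the medians were −0.08 for the neighbours and 0.07 for the members beside them, with 10 and 18 of 27 above 0. With the block, Ndufs6, a subunit of complex I that starts 29 bases from Mrpl36, rose (0.27; adjusted p in limma 0.0470). It did not pass with the correction for length and GC content (adjusted p in limma 0.178), nor without any one pair (0.0630 to 0.155). Helq, a DNA helicase gene that starts 29 bases from Mrps18c, fell (−0.70; adjusted p in limma 0.0244), also with the correction (0.0343). It did not pass without pair 1, 3 or 4 (0.0555 to 0.0979). Apba3, which starts 26 bases from Mrpl54, differed by −0.01.

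Promoters are described because Nrf2 is a transcription factor that binds the antioxidant response element (ARE). RefSeq windows of 250 bases before to 50 bases after the start, on GRCm38.p6, were found for 69 members. The core of the ARE was searched as TGACNNNGC on both strands, and 14 of the 69 (20.3%) held it, beside 16.9% of the genes of the table with a window. Of the 14, 12 had differences above 0, with a median of 0.12, and 1 rose with the block. Of the 55 without a match, 47 were above 0, with a median of 0.15, and 5 rose, beside 2.99% of all genes. The one that held a match and rose was Mrpl58. The 250 bases upstream of its start, chr11:115403502-115403751 on the plus strand, are shown with the ARE match, which reads on the minus strand, as the leftmost capitals and a match to the ETS motif CCGGAAG as the rightmost.
Mrpl58: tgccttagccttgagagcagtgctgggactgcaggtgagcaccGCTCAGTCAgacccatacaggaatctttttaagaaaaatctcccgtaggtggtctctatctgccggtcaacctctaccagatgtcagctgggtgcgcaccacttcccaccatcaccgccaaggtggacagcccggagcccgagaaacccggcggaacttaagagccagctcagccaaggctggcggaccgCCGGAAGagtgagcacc

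The ARE match of Mrpl58 begins 207 bases before the start. Other matches are shown for Mrps21, the highest member, for Mrpl30 and for Mrps18c, none of which passed, so that the varied central letters can be compared. Each line gives 29 bases read along the strand of the match, with the match in capitals. They lie at chr11:115403535-115403563 (minus strand) for Mrpl58, chr3:95871561-95871589 (plus strand) for Mrps21, chr1:37890374-37890402 (plus strand) for Mrpl30 and chr5:100798541-100798569 (plus strand) for Mrps18c.
Mrpl58: tgtatgggtcTGACTGAGCggtgctcacc
Mrps21: gcttaccgtcTGACCTTGCgaaggttcgg
Mrpl30: agcgcacgcgTGACGCCGCtgcgcctgcg
Mrps18c: agacagcaggTGACCCAGCatcagctttc

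Motifs of factors known for nuclear genes of mitochondria were counted in the same windows and on both strands. The ETS motif CCGGAAG, bound by GABP among others, was in 37.7% of the 69 members, beside 20.5% of the genes of the table. The motif of nuclear respiratory factor 1 (Nrf1, a different factor from Nrf2) was in 18.8%, beside 12.2%. The motif AANATGGCG of YY1 was in 15.9%, beside 6.27%. The median difference was 0.14 for the 26 members with the ETS motif and 0.15 for the 43 with a window that lacked it. For Nrf1 it was 0.07 for the 13 members with the motif and 0.15 for the 56 without. With the block 0 of the 13 rose, beside 10.3% of all members and 2.99% of all genes. With only 13 members that count cannot be told from these shares. A match is a description of letters and not evidence of binding.

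Other genes of the mitoribosome and of mitochondrial translation were described by list. The 5 subunits with other symbols were all measured and had a median of 0.11. Among them Aurkaip1, a small-subunit protein, rose with the block, with 59.5, 44.1, 63.0 and 58.1 FPKM in cKO libraries, against 44.0, 38.3, 53.1 and 50.6 FPKM in WT libraries (0.27 ± 0.14; adjusted p in limma 0.489 without and 0.0406 with the block). It did not pass with the block and the correction for length and GC content (adjusted p in limma 0.0824), nor without any one pair (0.0730 to 0.132). Ptcd3, a pentatricopeptide protein of the small subunit, differed by −0.25 ± 0.12. Its adjusted p in limma was 0.0689 with the block and 0.0449 with the block and the correction, where it was the only one of the 5 that passed. Dap3, a GTP-binding protein of the small subunit, differed by 0.05 ± 0.10. Of 25 genes for mitoribosome assembly and rRNA modification 23 were measured, with a median of −0.05 and none past the threshold with the block. Of 17 translation factors 16 were measured, with a median of 0.02. Guf1, a mitochondrial elongation factor, fell, with an average of 13.2 ± 4.20 FPKM in cKO and 20.7 ± 5.36 FPKM in WT libraries (SD, n = 4 each; adjusted p in limma 0.453 without and 0.00515 with the block).

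The tRNA synthetases of mitochondria, of which 16 of 17 were measured, had a median of −0.08, and Hars2, which charges histidine tRNA, fell by 0.57 on the log2 scale (adjusted p in limma 0.00679 with the block). Of 14 genes for transcription and copying of mitochondrial DNA, 13 were measured, with a median of 0.06 and none past the threshold with the block. Polrmt, the mitochondrial RNA polymerase, differed by −0.29 ± 0.15 and Tfam, which packs mitochondrial DNA, by 0.12 ± 0.12. Of 10 regulators of nuclear mitochondrial genes 9 were measured, with a median of 0.03. Gabpb2, a subunit of GABP, fell by 0.46 on the log2 scale (adjusted p in limma 0.0296 with the block). It did not pass with the correction as well (adjusted p in limma 0.0804), nor without any one pair (0.0648 to 0.122). Gabpa differed by −0.04 and Nrf1 by 0.05.

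The RNAs that the mitoribosome translates, and its own ribosomal RNAs, were lower in cKO libraries. All 7 measured mRNAs of the mitochondrial genome, of 13 listed, fell with the block, beside 7.59% of all genes. Their median was −0.54, with a range of −0.66 to −0.36. All 7 also fell with the block and the correction. With the block and 1 pair left out, mt-Nd4 did not pass without pair 1, 4 or 5 (adjusted p in limma 0.0628 to 0.0852), and mt-Nd5 (0.0575) and mt-Cytb (0.0522) did not pass without pair 1. Their summed level was 661, 748, 554 and 536 FPKM in cKO libraries 1, 3, 4 and 5, against 938, 969, 866 and 747 FPKM in WT libraries 1, 3, 4 and 5. mt-Nd1, a core subunit of complex I, had 69.2, 77.1, 70.0 and 59.8 FPKM in cKO libraries, against 103, 106, 114 and 114 FPKM in WT libraries, with no overlap (adjusted p in limma 0.149 without and 0.00412 with the block). The 2 ribosomal RNAs of the mitoribosome, named after their values were seen, also fell. mt-Rnr2, of the large subunit, had 62.9, 81.8, 63.2 and 53.9 FPKM in cKO libraries, against 89.0, 114, 83.4 and 80.0 FPKM in WT libraries (−0.48 ± 0.15; adjusted p in limma 0.453 without and 0.00383 with the block). mt-Rnr1, of the small subunit, averaged 16.1 ± 3.56 FPKM in cKO and 22.2 ± 3.69 FPKM in WT libraries (SD, n = 4 each; −0.46 ± 0.17; adjusted p in limma 0.453 without and 0.0154 with the block, and 0.0752 with the block and without pair 1). These RNAs are made and used inside mitochondria, are not bound to cytosolic ribosomes and pass poly(A) selection only in part. How they came to be in the libraries was not tested.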

How the data were processed

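The authors deposited 1 table of FPKM for 12339 genes in 8 libraries (4 cKO, 4 WT), with whole libraries as columns. Per the labels' protocols, RNeasy Micro was used for extraction and poly(A) RNA went into directional libraries. Per the submitters' processing notes, STAR, edgeR, GRCm38 and mm10 were used; roles, counting tool and strand setting are not given in the sources used here. Depth is unknown, so no counting interval or floor was computed. Every deposited gene had a mean above 2 FPKM, and all 78 members were tested without a further filter.

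Values were taken as log2(FPKM + 0.5), which understates changes of low genes. The test of cKO against WT was that of limma 3.58.1 (lmFit, eBayes with trend, two-sided; R 4.3.3), with Benjamini-Hochberg adjustment over all 12339 genes and a threshold of 0.05, without and with the replicate number as a block. Equal numbers deviated together in cKO and WT (correlations across genes of 0.261 to 0.591; unequal numbers −0.479 to 0.211), so they were taken to pair the samples. Deviations were taken from the group means, so the correlations of unequal numbers are not independent of those of equal numbers. For Nfe2l2 an exact permutation test of the group labels was added, without the replicate number. Members and lists were chosen with earlier results of these data known. Named members were the 12 with the smallest p, those past the threshold, the 4 highest, the 4 lowest and 7 with known roles. Named genes of the other lists were up to 4 per list with the smallest p; Dap3, Tfam, Gabpa, Nrf1, Ndufs6, Helq and Apba3 were added after their values were seen. Alternatives were other pseudocounts, scalings, weights, corrections and leaving out each library. The fit was also run on data simulated with independent noise, which held no replicate pairing and so could not check the pairing. Gene positions, lengths and overlaps came from GENCODE M21, and promoter windows from RefSeq on GRCm38.p6. Length and GC content were those of the longest protein-coding transcript of a gene, or of its longest transcript where none was coding.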

Additional observations from a re-analysis of the deposited data

Results flagged for a closer look

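In 7 of 54 groups of 4 libraries of the named genes, 1 library lay far from the other 3, judged by its gap to the nearest of them relative to the range of the group; chance gives about 5% of groups. Mrps33 was at 38.2 FPKM in cKO library 1, against 28.1 to 29.5 FPKM in the other cKO libraries. In cKO library 3, Mrpl42 was at 59.0 FPKM (others 64.5 to 65.6), Mrps34 at 33.0 FPKM (others 39.1 to 40.2) and Mrpl23 at 3.54 FPKM (others 5.64 to 5.91), each the lowest of the cKO libraries. In WT library 5, Mrps17 was at 45 FPKM (others 39.1 to 39.6) and Mrps18a at 31.0 FPKM (others 20.9 to 22.3), each the highest of the WT libraries. Mrps6 was at 36.6 FPKM in WT library 4, against 25 to 25.5 FPKM in the other WT libraries.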

How the results depend on the processing

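The median difference of the members lay between 0.08 and 0.24 over all settings, that of the large subunit between 0.08 and 0.25 and that of the small subunit between 0.07 and 0.18. Over 23 settings 50 of 78 members kept 1 sign, 44 of them higher and 6 lower in cKO, and 23 of the 26 named members did. The exceptions were Mrps18c, Mrpl35 and Mrpl1. The count of members past the adjusted threshold was 0 under every setting without the block, including each library left out. It was 8 higher with the replicate block, 3 higher and 1 lower with the block and the length and GC correction, and 1 to 9 higher with the block and 1 pair left out, beside 2.99%, 1.95% higher and 5.59% lower, and 0.446% to 1.10% of all genes.

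At an unadjusted p under 0.05, counts over all genes moved with those of the members, and each share of all genes is given in brackets. The 8 members higher in cKO (3.95%) became 35 with library weights (12.9%), 26 with the replicate block (12.4%) and 17 with the block and the length and GC correction (11.1%). With the block and 1 pair left out they were 14 (8.27%) when that was pair 1, 20 (9.77%) when it was pair 3, 21 (9.96%) for pair 4 and 26 (11.2%) for pair 5. Without the block they were 4 without WT library 1 (2.87%), WT library 3 (1.99%) or cKO library 4 (2.56%), 5 without cKO library 1 (2.25%), 15 without WT library 4 (6.30%), 16 without WT library 5 (5.02%) and 22 without cKO library 3 (7.45%). The 0 lower ones (6.67%) became 2 with TPM scaling (6.86%), 4 with the length and GC correction (6.69%), 2 with the block (16.0%), 7 with both (14.8%), and 0 to 2 when a library or pair was left out (2.95% to 15.9%). The 3 members above without overlap (2.06%) became 5 with TPM scaling (1.83%) and 3 to 19 when a library or pair was left out (2.55% to 9.27%), the 19 without cKO library 3 (8.63%) or pair 3 (9.27%). Members below without overlap numbered 2 with the length and GC correction, with or without the block (2.62%), and 0 to 3 when a library or pair was left out (2.82% to 8.71%). The causes were not tested. Nfe2l2 failed in limma when the block was absent (adjusted p 0.453), also after the correction (0.406). It passed with the block (−0.50, adjusted p in limma 0.0219) and with the block and the correction (−0.54, 0.0245). With the block and 1 pair left out, it passed without pair 3 (−0.60, 0.0182). It did not pass without pair 1 (0.0785), pair 4 (0.0846) or pair 5 (0.0634). Over libraries and pairs left out it ran from −0.60 to −0.38. A minimum mean of 5 FPKM removed no member.

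With 4 libraries a group and unknown depth, the differences of most members did not exceed the spread between libraries. Transcript length, the level of the sense intronic and TEC genes, marker genes of retinal cells and genotype moved together, and their parts were not separated.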
